A study of Mus musculus with 10 samples.

Results

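The genes examined here encode proteins that end the light response of photoreceptors. They were Sag, Grk1, Rcvrn, Rgs9, Rgs9bp, Gnb5 and Pdc, chosen as 7 known parts of phototransduction shutoff, and every CUT&Tag peak carrying one of these symbols was taken. The selection gave 45 of 108253 peaks in the deposited table, 7 of them annotated as promoters and 38 outside promoters, which together covered 41633 bp. Peaks were found for 6 of the 7 genes, with 10 for Sag, 4 for Grk1, 3 for Rcvrn, 14 for Rgs9, 7 for Gnb5 and 7 for Pdc. No peak carried the symbol Rgs9bp. The tissue was retina from wild-type C57BL/6J mice at P28, freed of sclera and RPE and kept as explants for 48 hours in medium with either 5 mM or 25 mM glucose. CUT&Tag, in which an antibody guides a transposase to a histone mark, was run for H3K18La with 3 libraries per glucose level and for H3K27Ac with 2 per level. Marks and method are given here after the sample titles and the study's methods, whereas the extraction notes in the labels of all 10 libraries name an antibody to H3K9me3 and a fusion of protein A with MNase. Each assay took 500000 cells, and all 10 libraries carry the same batch label. The explants held neural retina only, without the pigment epithelium that adjoins photoreceptors in the eye, and whole retina was assayed, so that fewer cells of a type and less mark per cell cannot be told apart.

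A photon activates the visual pigment, a receptor that activates the G protein transducin, which in turn activates a phosphodiesterase that lowers cGMP and closes the cation channels of the outer segment. Recovery requires that each active step be ended. Grk1, a receptor kinase, phosphorylates the active receptor, and Sag, the rod arrestin, caps the phosphorylated receptor. Rcvrn, recoverin, holds Grk1 back while calcium is high. Rgs9 speeds GTP hydrolysis by transducin together with its obligate partner Gnb5, a G protein beta subunit, and Rgs9bp anchors this complex to the disc membrane. Pdc, phosducin, binds the beta-gamma subunits of transducin. H3K27Ac is an acetyl mark of active promoters and enhancers, and H3K18La is a lactyl mark on the same histone tail whose donor derives from lactate, a product of glycolysis. The design asks how these marks differ between low and high glucose.

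The promoter windows show which letters lie before the gene starts. They fall under the peaks that the results turn on, except for the far end of the Rgs9 window. RefSeq promoter sequences were matched by symbol for 5 of the 7 genes, and the 250 bases before the start in GRCm38.p6 were searched on both strands. The motifs searched were TAATCC (reverse GGATTA), the core bound by the photoreceptor factor CRX, TGCTGA (reverse TCAGCA), an NRL half-site, GGGCGG (reverse CCGCCC), a GC box, and AGGTCA (reverse TGACCT), a nuclear receptor half-site. No occurrences of different motifs overlapped in the windows printed. Capitals mark the matches, and each sequence reads 5′ to 3′ on the strand of its gene. Sag is shown because its window held 3 of the 4 motifs, Gnb5 and Rgs9 because each held a match, and Pdc because its promoter peak passed in both marks while its window held none. The windows lie at chr1:87803430-87803679 (plus strand) for Sag, chr9:75306038-75306287 (plus) for Gnb5, chr11:109298182-109298431 (minus) for Rgs9 and chr1:150319167-150319416 (plus) for Pdc.
Sag: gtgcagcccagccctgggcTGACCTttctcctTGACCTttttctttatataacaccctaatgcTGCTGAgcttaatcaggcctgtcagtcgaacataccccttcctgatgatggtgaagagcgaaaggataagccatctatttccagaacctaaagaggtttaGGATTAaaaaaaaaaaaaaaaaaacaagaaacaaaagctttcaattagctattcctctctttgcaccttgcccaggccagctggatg
Gnb5: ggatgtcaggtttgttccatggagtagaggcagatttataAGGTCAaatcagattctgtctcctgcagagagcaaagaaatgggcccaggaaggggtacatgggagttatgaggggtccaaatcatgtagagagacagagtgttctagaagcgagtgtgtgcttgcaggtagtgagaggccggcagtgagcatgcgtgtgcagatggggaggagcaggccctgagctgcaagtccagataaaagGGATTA
Rgs9: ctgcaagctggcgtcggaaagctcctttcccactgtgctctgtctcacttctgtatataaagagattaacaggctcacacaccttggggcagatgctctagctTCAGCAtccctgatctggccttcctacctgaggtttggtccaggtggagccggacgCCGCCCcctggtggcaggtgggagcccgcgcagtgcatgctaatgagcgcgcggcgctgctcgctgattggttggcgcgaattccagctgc
Pdc: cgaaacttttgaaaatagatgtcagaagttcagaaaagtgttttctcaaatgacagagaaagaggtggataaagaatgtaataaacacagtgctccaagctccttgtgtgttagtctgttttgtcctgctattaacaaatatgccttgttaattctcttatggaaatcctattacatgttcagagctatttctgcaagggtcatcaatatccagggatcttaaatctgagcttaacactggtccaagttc

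Sag held a reverse TAATCC beginning 87 bases before its start, a TGCTGA at 187 bases, and reverse AGGTCA matches at 231 and 218 bases. Gnb5 held a reverse TAATCC at 6 bases, ending on the base before the start, and an AGGTCA at 210 bases. Rgs9 held a reverse TGCTGA at 147 bases and a reverse GGGCGG at 91 bases. The Grk1 window (chr8:13404831-13405080, plus strand) held none of the 4, as did that of Pdc. Of all 32851 promoter windows of this length, 6.25% held TAATCC, 16.1% TGCTGA, 32.7% GGGCGG and 14.0% AGGTCA. The windows ranged from 36.4% GC in Pdc and 42.8% in Sag to 59.6% in Rgs9. A match is a description of these letters, and its absence says only that they are not in the window.

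Libraries held between 1358008 and 7424470 reads by the denominators of the deposited RPKM values (read density per length of peak and depth of library). The share of reads in peaks was 11.81% to 12.01% in the 5 mM and 31.2% to 35.0% in the 25 mM H3K18La libraries. For H3K27Ac it was 21.1% and 31.5% at 5 mM against 69.5% and 56.5% at 25 mM. These shares depend on the peak set, which appears to be the one the study built from H3K18La in developing and mature retina, not from these explants or from H3K27Ac. Changes below are differences of the mean log2(RPKM + 0.5), 25 mM minus 5 mM, tested with limma wherever the mean RPKM over the libraries of a mark reached 1, and a change was called at a Benjamini-Hochberg adjusted p below 0.05. The log2 scale with a pseudocount understates the change of peaks with few reads. Across all peaks tested, the median change was 1.10 for H3K18La and 0.84 for H3K27Ac, against which the changes of the shutoff genes should be read.

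Both marks were higher at 25 mM glucose at the lead promoter peak, the strongest promoter peak, of each of the 6 shutoff genes. The log2 changes lay between 1.93 (Rgs9) and 2.50 (Pdc) for H3K18La and between 1.65 (Grk1) and 2.76 (Pdc) for H3K27Ac. All 6 passed the test in each mark, where 32.6% of 10477 lead promoter peaks tested rose in H3K18La and 59.1% of 12867 in H3K27Ac. In no case did the libraries of the 2 glucose levels overlap, where 25 mM lay wholly above in 36.6% of all peaks for H3K18La and 53.0% for H3K27Ac. With no minimum RPKM, when all 108253 peaks were fitted, none of the 6 passed in H3K27Ac by limma (adjusted p 0.125 to 0.144). Nor did Pdc in H3K18La (limma adjusted p = 0.0634). In that fit limma's spread followed the trend over all peaks less closely, and more peaks entered the adjustment.

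Grk1, the kinase that begins receptor shutoff, had the highest mean H3K18La promoter level of the genes at both glucose levels. At 25 mM its libraries overlapped those of Sag. Its peak (chr8:13402949-13405486) spans the gene start and reaches mainly upstream of it. H3K18La RPKM was 4.48, 4.33 and 4.93 at 5 mM and 25.26, 18.61 and 19.66 at 25 mM. The 5 mM libraries were tightly grouped, and every 25 mM library was above them, by a log2 change of 2.08 ± 0.23 (SE, n = 3 per level, limma adjusted p = 0.000352). H3K27Ac RPKM was 12.48 and 18.02 at 5 mM and 56.69 and 41.18 at 25 mM. Again the groups did not overlap, and the log2 change was 1.65 ± 0.54 (SE, n = 2 per level, limma adjusted p = 0.0134).

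Sag, the arrestin that completes receptor shutoff, was next to Grk1 in level. Its promoter peak (chr1:87802869-87804077) held H3K18La RPKM of 2.74, 2.07 and 4.26 at 5 mM and 32.40, 16.48 and 11.99 at 25 mM. The 25 mM libraries were all above the 5 mM ones but spread widely, with replicate 1 highest, and the log2 change was 2.48 ± 0.37 (SE, n = 3, limma adjusted p = 0.000812). H3K27Ac RPKM was 7.46 and 19.04 at 5 mM and 77.62 and 36.65 at 25 mM. Both 25 mM libraries were above both 5 mM ones, although libraries of one level differed as widely as 7.46 and 19.04, and the log2 change was 2.11 ± 0.54 (SE, n = 2, limma adjusted p = 0.00216).

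Rcvrn, the calcium sensor that restrains Grk1, had a promoter peak over its start (chr11:67694877-67696459). H3K18La RPKM there was 2.10, 2.68 and 1.40 at 5 mM and 11.57, 10.72 and 6.82 at 25 mM. The lowest 25 mM library was above the highest 5 mM one, and the log2 change was 1.99 ± 0.34 (SE, n = 3, limma adjusted p = 0.00154). H3K27Ac RPKM was 8.03 and 13.43 at 5 mM and 46.98 and 31.23 at 25 mM, without overlap, a log2 change of 1.83 ± 0.53 (SE, n = 2, limma adjusted p = 0.00572).

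For the transducin shutoff complex, the catalytic subunit Rgs9 and its partner Gnb5 had H3K18La changes within 1 SE of each other. At the Rgs9 promoter (chr11:109295674-109298392), H3K18La RPKM was 1.39, 2.13 and 3.52 at 5 mM and 13.10, 10.31 and 7.07 at 25 mM. At the Gnb5 promoter (chr9:75305874-75307189) it was 2.16, 1.47 and 1.68 at 5 mM and 11.21, 9.91 and 5.89 at 25 mM. Neither gene's groups overlapped, and replicate 1 was the highest 25 mM library at both. The log2 changes were 1.93 ± 0.37 for Rgs9 (limma adjusted p = 0.00256) and 2.03 ± 0.35 for Gnb5 (SE, n = 3, limma adjusted p = 0.00149). H3K27Ac RPKM was 3.83 and 6.87 at 5 mM and 36.51 and 20.01 at 25 mM for Rgs9, against 4.74 and 12.36, then 43.10 and 37.46, for Gnb5. Gnb5 replicates differed more at 5 mM and Rgs9 replicates more at 25 mM, and the log2 changes were 2.29 ± 0.50 for Rgs9 (limma adjusted p = 0.000424) and 2.31 ± 0.52 for Gnb5 (SE, n = 2, limma adjusted p = 0.000608).

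Pdc, the phosducin gene, had the lowest mean promoter level at 5 mM in both marks. Its H3K27Ac change was the highest of the 6 genes but within 1 SE of those of Gnb5 and Rgs9, and its H3K18La change could not be ranked against that of Sag. Its peak (chr1:150319098-150319637) is short, 540 bp, and H3K18La RPKM was 3.51, 1.07 and 0.00 at 5 mM and 12.25, 6.83 and 5.62 at 25 mM. The 5 mM values stand for 4, 3 and 0 reads, so their order carries little weight, and the log2 change was 2.50 ± 0.64 (SE, n = 3, limma adjusted p = 0.0111). It was 3.23 without the 5 mM replicate 1 library and 1.73 without replicate 3, the library with 0 reads, where Sag changed by 2.45 and 2.73, and 2.07 against 2.32 for Sag with a pseudocount of 1. Without the 25 mM replicate 1 library it was 2.19 with an adjusted p of 0.0561. H3K27Ac RPKM was 3.85 and 3.58 at 5 mM and 41.45 and 18.96 at 25 mM, where 9 and 12 reads rose to 161 and 76. The 5 mM pair lay close together and below both 25 mM libraries, with a log2 change of 2.76 ± 0.49 (SE, n = 2, limma adjusted p = 1.27e-05).

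**Figure D1:**
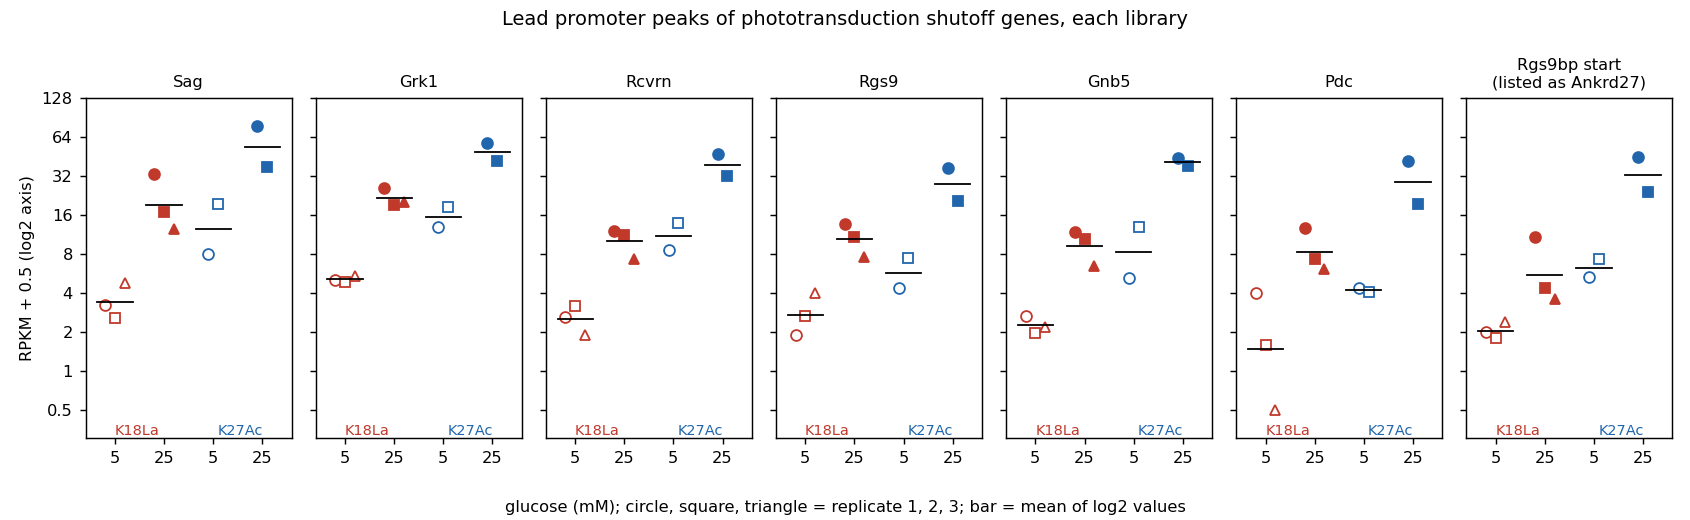
RPKM + 0.5 on a log2 axis for each library at the lead promoter peaks of the 6 shutoff genes and at the peak over the Rgs9bp start, which the table lists under Ankrd27; circles, squares and triangles are replicates 1, 2 and 3, and bars are means of the log2 values. In each panel every 25 mM library lies above every 5 mM library of the same mark, as do 36.6% of all peaks in H3K18La and 53.0% in H3K27Ac. At Grk1, H3K18La was 4.33 to 4.93 at 5 mM and 18.61 to 25.26 at 25 mM.

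Grk1 and Sag had the highest promoter levels in both marks, on the RPKM scale, which is per kilobase. Mean H3K18La RPKM at 5 mM was 4.58 for Grk1, 3.03 for Sag, 2.35 for Rgs9, 2.06 for Rcvrn, 1.77 for Gnb5 and 1.53 for Pdc. Of neighbours in this order, Grk1 and Sag did not overlap between libraries and all others did. At 25 mM the means were 21.2 for Grk1, 20.3 for Sag, 10.2 for Rgs9, 9.70 for Rcvrn, 9.00 for Gnb5 and 8.23 for Pdc, in the same order and with every pair of neighbours overlapping. For H3K27Ac, Grk1 (15.3) and Sag (13.3) led at 5 mM and Rgs9 (5.35) and Pdc (3.72) came last, and at 25 mM Sag (57.1) and Grk1 (48.9) led while Pdc (30.2) and Rgs9 (28.3) came last, with all neighbours overlapping. Among all 17144 promoter peaks, the Grk1 peak stood at percentile 99.4 of H3K18La at 5 mM and 99.6 at 25 mM. The Pdc peak moved from percentile 57.3 of H3K27Ac at 5 mM to 94.0 at 25 mM, and the Rgs9 peak from 73.4 to 92.8.

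One library stood highest at each of these promoters. Replicate 1 was the highest 25 mM library at all 6 lead promoters in H3K18La, as it was at 62.5% of 12657 lead promoters of all genes, and at all 6 in H3K27Ac, against 83.5%. It also had the highest share of reads in peaks in its group in both marks. Without the 25 mM replicate 1 library, the H3K18La log2 changes of the 6 genes kept their sign, and 5 still passed, Pdc being the exception given above. In H3K27Ac, leaving out that library left a single 25 mM library, assumed to vary like the others, and none of the 6 passed, with log2 changes between 1.43 (Grk1) and 2.21 (Gnb5 and Pdc) and adjusted p between 0.343 and 0.434. Without the 25 mM replicate 2 library, Pdc alone of the 6 still passed in H3K27Ac (log2 change 3.31, adjusted p = 0.0141). The H3K27Ac calls at these promoters therefore rested on single 25 mM libraries, that of Pdc on replicate 1 and the others on both. Every 25 mM value was still above every 5 mM value. The lead non-promoter peaks of all 6 genes lost their H3K27Ac call without either 25 mM library.

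The number of calls depended on how the libraries were scaled, and the 25 mM libraries also had more of their reads in peaks. When each library was centred on its median peak, the median change of all peaks tested fell from 1.10 to 0.19 for H3K18La and from 0.84 to 0.15 for H3K27Ac. When each was scaled to its reads in peaks instead, that median was 0.03 for H3K18La and -0.22 for H3K27Ac. All 6 lead promoters stayed above 0 under both scalings in both marks. Centred, the H3K18La changes were 1.02 to 1.59 with 1 of 6 passing, where 141 of 12217 promoter peaks tested were higher. The H3K27Ac changes were 0.97 to 2.08 with 3 of 6 passing, where 530 of 15143 promoter peaks tested were higher. Scaled to reads in peaks, the changes were 0.649 to 1.50 in H3K18La and 0.402 to 1.56 in H3K27Ac, above the median of all peaks. None passed in either mark by limma, as was so for all peaks tested. An unadjusted p below 0.05 was found in 6 of 34 member peaks tested in H3K18La, beside 7572 of 65614 peaks. In H3K27Ac it was found in 15 of 45, beside 12491 of 72442. Pdc had the highest H3K27Ac change of the 6 under each of the 3 scalings, at 2.76, 2.08 and 1.56. Whether the higher share of reads in peaks reflects the chromatin or the assay cannot be told apart in these libraries.

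**Figure D2:**
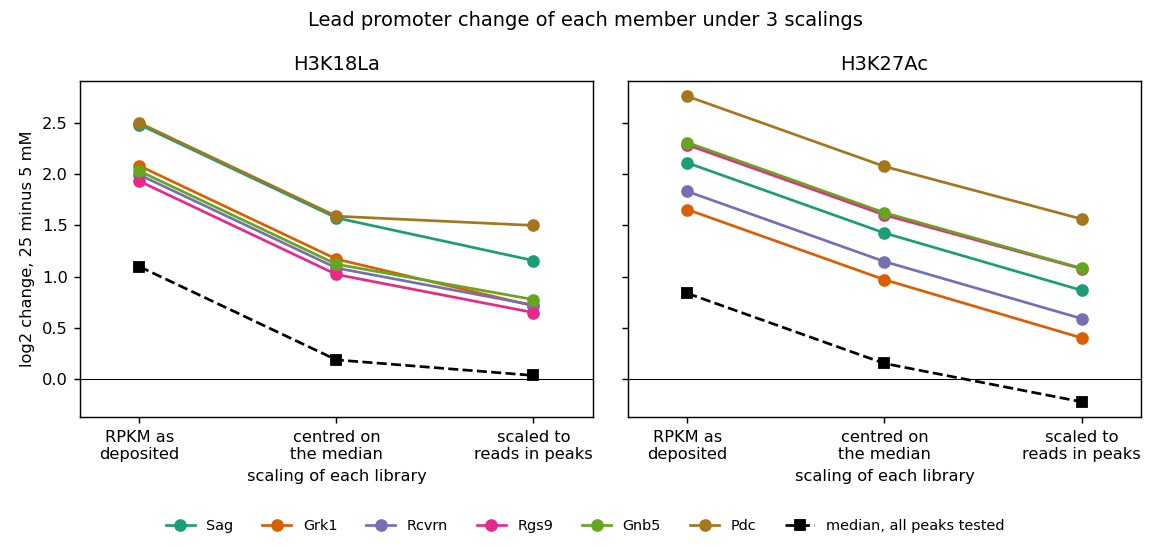
Log2 change of the lead promoter peak, 25 mM minus 5 mM glucose, for the 6 shutoff genes under 3 scalings of the libraries, with the median of all peaks tested beside them. Every gene lies above 0 under each scaling, while the H3K27Ac median of all peaks goes from 0.84 to 0.15 when centred and to -0.22 when scaled to reads in peaks.

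Over all 45 peaks of the shutoff genes, H3K18La passed the test in 24 of the 34 that could be tested, all higher at 25 mM, where 37.3% of 65614 peaks tested were higher and 0.0869% lower. The other 11 peaks fell under the mean RPKM of 1, and a peak could reach that mean through its 25 mM libraries alone. Over all 45 peaks, with no minimum, the median change was 1.61, against 0.76 over all 108253 peaks. H3K27Ac could be tested in all 45 and was higher in 29, where 33.9% of 72442 peaks tested were higher and 0.164% lower, and the median change was 1.47 against 0.84 for all tested. In the whole set of 45, without any minimum, the log2 change was above 0 in 43 for H3K18La and 44 for H3K27Ac. Libraries of the 2 levels did not overlap, with 25 mM higher, in 29 of 45 for H3K18La (36.6% of all peaks) and 38 of 45 for H3K27Ac (53.0%). In 22 peaks both marks passed, in 2 only H3K18La and in 7 only H3K27Ac, beside 11.7%, 11.0% and 11.0% of all 108253 peaks. Counts at 5 mM were small: in 17 of the 45 peaks no 5 mM H3K18La library held more than 3 reads, among them 4 of the 24 that passed and 9 of the 11 that were not tested. In 2 of the untested peaks, at +26.5 kb of Sag and +26.2 kb of Gnb5, every 5 mM H3K18La library held 0 reads. Leaving out either 25 mM H3K27Ac library left a single one at that level, and most H3K27Ac calls were lost, for these peaks as for all peaks. The median H3K27Ac change of the member peaks tested was 1.43 without replicate 1, against 0.82 for all tested. Without replicate 2 it was 1.50, against 0.89.

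All 7 promoter peaks passed in H3K18La and 6 of 7 in H3K27Ac, against 33.3% and 57.0% of all promoter peaks tested. Outside promoters 17 of 27 tested passed in H3K18La and 23 of 38 in H3K27Ac, against 38.2% and 27.8% of all non-promoter peaks tested. By position, 5 of 7 upstream peaks tested, 12 of 19 inside the genes and 0 of 1 downstream passed in H3K18La. In H3K27Ac these were 6 of 9, 17 of 27 and 0 of 2. These counts describe the 45 peaks, and their differences by position were not tested.

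Along Sag, its 2 upstream peaks and its promoter passed in both marks, the peak at -2.6 kb (chr1:87800707-87801459) with H3K18La RPKM of 1.89, 4.36 and 0.98 at 5 mM and 12.16, 16.98 and 12.98 at 25 mM. There the libraries did not overlap and the log2 change was 2.48 ± 0.41 (SE, n = 3, limma adjusted p = 0.00123) beside 2.48 at the promoter, and the H3K27Ac change was 1.51. The peak at -5.5 kb changed by 1.90 in H3K18La and 1.60 in H3K27Ac. Inside the gene, 1 of 5 peaks tested passed in H3K18La, at +10.1 kb in intron 4 of 15 where no 5 mM library held more than 3 reads, and 5 of 7 passed in H3K27Ac, beside 38.2% and 27.8% of all non-promoter peaks. No Sag peak passed the interaction test of the 2 marks.

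The strongest peak inside Sag, in intron 2 of 15 (chr1:87807326-87807998, +4.0 kb), stood at percentile 96.8 of H3K18La among peaks outside promoters at 5 mM and at percentile 89.3 at 25 mM. H3K18La RPKM was 3.52, 2.01 and 5.47 at 5 mM and 4.54, 6.58 and 9.52 at 25 mM. These libraries overlapped, and the log2 change of 0.86 ± 0.39 did not pass (SE, n = 3, limma adjusted p = 0.103). It was -0.055 when libraries were centred and -0.45 when scaled to reads in peaks, so its direction depends on the scaling, and without the 5 mM replicate 3 library it was 1.16 and passed (adjusted p = 0.0364), while without replicate 2 it was 0.53. H3K27Ac RPKM was 11.68 and 15.55 at 5 mM and 40.69 and 36.02 at 25 mM, a log2 change of 1.47 ± 0.53 (SE, n = 2, limma adjusted p = 0.0242). The difference between the marks in this peak was not larger than their spread (interaction unadjusted p = 0.298, limma adjusted p = 0.909).

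In Grk1 the strongest peak outside the promoter was in intron 1 of 6 (chr8:13405871-13406320, +1.0 kb). H3K18La RPKM was 8.43, 3.00 and 6.55 at 5 mM and 23.74, 16.94 and 16.48 at 25 mM, and H3K27Ac RPKM was 8.22 and 16.82, then 83.41 and 51.78. Neither mark overlapped between levels, and the log2 changes were 1.68 ± 0.33 (SE, n = 3, limma adjusted p = 0.00314) and 2.43 ± 0.54 (SE, n = 2, limma adjusted p = 0.000547). At 25 mM this intron peak held more H3K27Ac per kilobase than the Grk1 promoter in both libraries. The remaining Grk1 peaks, at +7.4 kb in intron 4 and at +16.8 kb in the 3′ UTR, were too low to test in H3K18La and did not pass in H3K27Ac.

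All 3 Rcvrn peaks passed in both marks, as did 11.7% of all peaks. The peak at +6.4 kb (chr11:67701419-67702016) lies within Rcvrn but is annotated in intron 8 of 9 of Glp2r, which overlaps it, so it cannot be given to one gene. Glp2r also lies near the other Rcvrn peaks, Gm19531 and Myo5c near the Gnb5 peaks at +0.2 and +2.8 kb, Gm19531 or Gm48677 or both near the other 5 Gnb5 peaks, and 2310030A07Rik and Gm37764 near the Pdc promoter and both peaks inside Pdc, which share that limit. H3K18La RPKM at +6.4 kb was 0.00, 3.87 and 2.46 at 5 mM and 5.96, 12.34 and 10.71 at 25 mM, without overlap, a log2 change of 2.39 ± 0.67 (SE, n = 3, limma adjusted p = 0.0172). The size rests on the 5 mM libraries, being 1.44 without replicate 1, which held 0 reads, and 3.00 without replicate 2. Without the 25 mM replicate 2 library the adjusted p was 0.0602, and without replicate 3 it was 0.0532. H3K27Ac RPKM was 7.35 and 8.89 at 5 mM and 36.03 and 36.71 at 25 mM, the closest 25 mM H3K27Ac replicates of any lead peak, with a log2 change of 2.10 ± 0.52 (SE, n = 2, limma adjusted p = 0.00160). The peak at +7.8 kb in the 3′ UTR changed by 2.45 in H3K18La and 2.00 in H3K27Ac.

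Rgs9, the longest of the genes, had the most peaks, of which 4 of 8 tested passed in H3K18La and 5 of 14 in H3K27Ac, near the 37.3% and 33.9% of all peaks. Upstream, the peak at -14.2 kb (chr11:109312090-109312584) passed in both marks with log2 changes of 2.13 and 1.57, while those at -20.8 and -22.3 kb were not tested in H3K18La and changed by -0.46 and 0.18 in H3K27Ac without passing. Inside the gene 2 of 5 peaks tested passed in H3K18La and 3 of 8 in H3K27Ac, and neither peak beyond its 3′ end passed in either mark. Both H3K18La calls inside the gene were in intron 1 of 18, at +9.7 and +11.5 kb. At +9.7 kb (chr11:109288016-109288802) H3K18La RPKM was 0.60, 2.94 and 0.94 at 5 mM and 5.82, 8.44 and 8.14 at 25 mM, and H3K27Ac RPKM was 4.11 and 5.11, then 10.78 and 13.69. No libraries of different levels overlapped, and the log2 changes were 2.16 ± 0.45 (SE, n = 3, limma adjusted p = 0.00387) and 1.31 ± 0.47 (SE, n = 2, limma adjusted p = 0.0236).

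Gnb5, which is also used outside photoreceptors, passed in 6 of 6 peaks tested in H3K18La and 5 of 7 in H3K27Ac, beside 37.3% and 33.9% of all peaks. The strongest, in intron 1 of 12 (chr9:75308333-75309841, +2.8 kb), had H3K18La RPKM of 1.89, 2.81 and 5.86 at 5 mM and 18.54, 13.36 and 10.05 at 25 mM, and H3K27Ac RPKM of 7.20 and 20.38, then 59.88 and 45.34. The levels did not overlap in either mark, and the log2 changes were 1.93 ± 0.38 (SE, n = 3, limma adjusted p = 0.00298) and 2.05 ± 0.54 (SE, n = 2, limma adjusted p = 0.00273). Without the 5 mM replicate 1 library the H3K27Ac change was 1.33. The second promoter peak of Gnb5, at +7.9 kb over the start of another transcript, changed by 1.83 in H3K18La and passed (limma adjusted p = 0.00370). Its H3K27Ac change of 1.03 did not pass (limma adjusted p = 0.100), the one promoter peak of the 7 that did not.

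Pdc had 4 upstream peaks, of which 2 passed in H3K18La and 3 in H3K27Ac, beside 38.2% and 27.8% of all non-promoter peaks. The peak at -7.3 kb (chr1:150311970-150312313) had H3K18La RPKM of 2.76, 3.37 and 2.14 at 5 mM and 20.70, 14.30 and 5.88 at 25 mM, a log2 change of 1.97 that passed, with replicate 1 again highest. At -5.7 kb the H3K18La change was 1.61 and missed the threshold (limma adjusted p = 0.0526) while the H3K27Ac change of 2.13 passed. The farthest peak, at -23.9 kb, passed in neither mark. In exon 3 of 4 (chr1:150322147-150323418, +3.4 kb) H3K18La RPKM was 2.98, 2.28 and 0.58 at 5 mM and 10.80, 8.89 and 6.63 at 25 mM, and H3K27Ac RPKM was 3.82 and 7.60, then 34.65 and 22.34. The levels were apart in both marks, with log2 changes of 2.06 ± 0.44 (SE, n = 3, limma adjusted p = 0.00484) and 2.26 ± 0.50 (SE, n = 2, limma adjusted p = 0.000512).

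**Figure D3:**
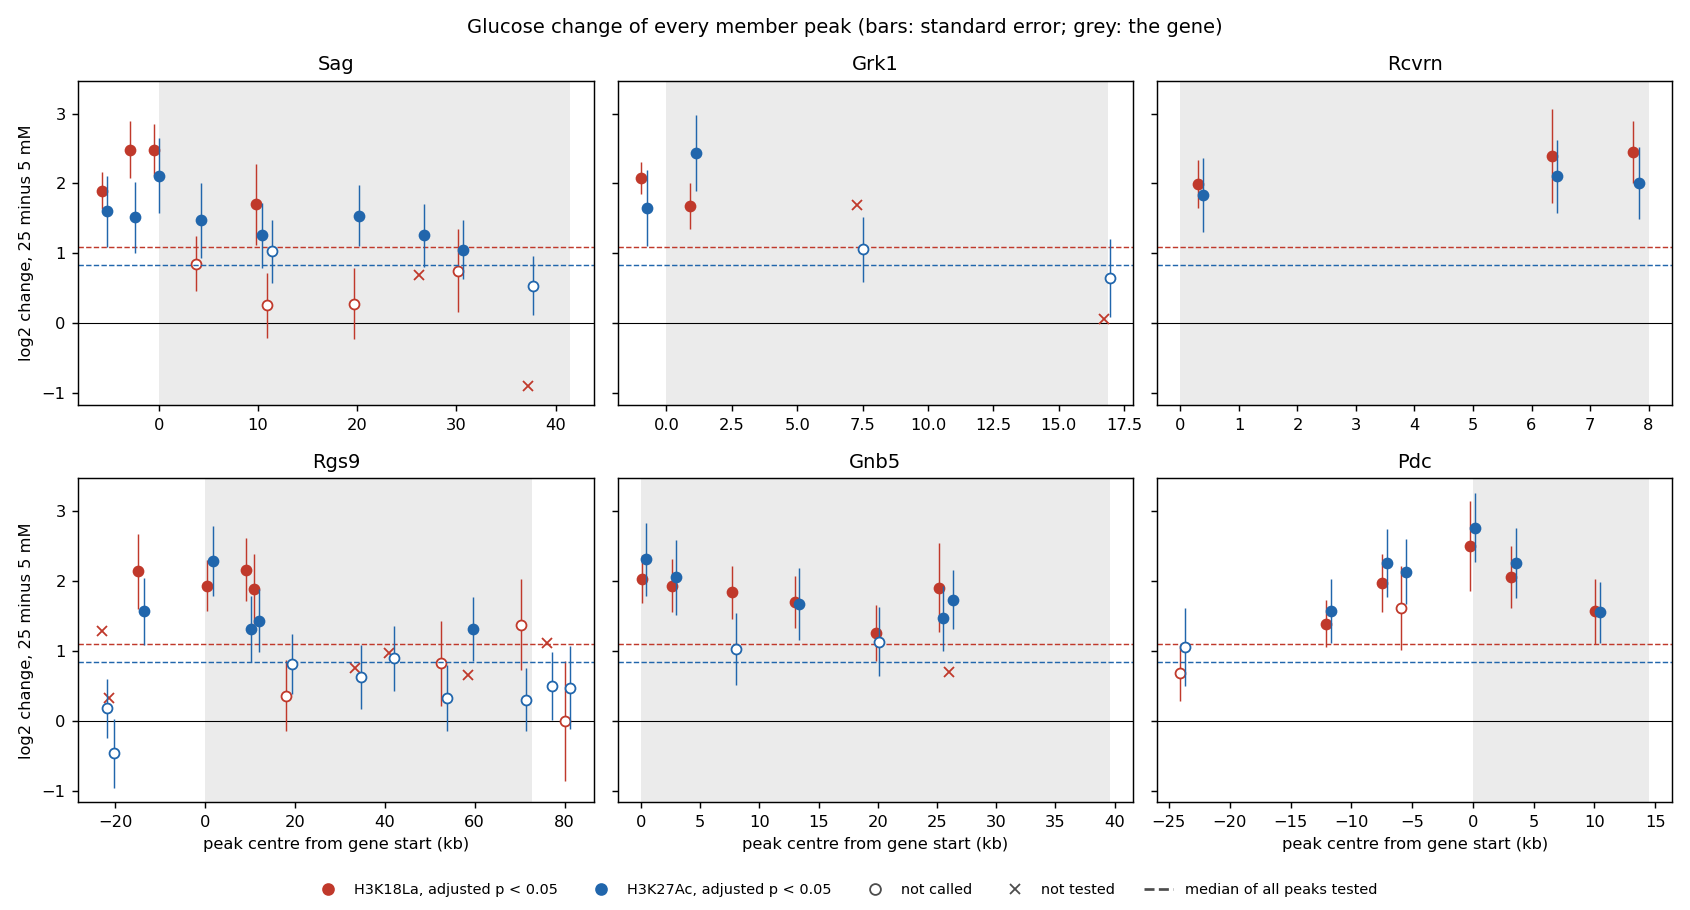
Log2 change with its SE, 25 mM minus 5 mM glucose, of each peak of the 6 genes against the distance of its centre from the gene start in kb, with filled points for peaks that passed, open points for those that did not and crosses for those not tested; the dashed line is the median of all peaks tested and the grey area the gene. In Sag the 3 peaks upstream of and at the start lie between 1.90 and 2.48 in H3K18La and 1 of 5 tested inside the gene passed, and under the other scalings the promoter stays above 0 while the peak at +4.0 kb turns negative (-0.055 centred and -0.45 by reads in peaks).

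The 2 marks were compared directly with an interaction term, the H3K27Ac change minus the H3K18La change, over all 10 libraries. None of 42 member peaks tested passed in limma, the smallest adjusted p being 0.903, and none had an unadjusted p below 0.05, where 5.04% of 72467 peaks did and 0 passed. By voom, another limma method applied to the reads recovered from the RPKM values, 0 peaks passed as well, with 5431 at an unadjusted p below 0.05. A glucose response that differed between marks was therefore not detectable at any of these peaks with 3 and 2 libraries per level. Over the 45 peaks the changes in the 2 marks were correlated with Pearson's r = 0.668, and over the 72467 peaks averaging 1 RPKM or more with r = 0.349, a filter that the 45 did not have to meet, as a description across peaks that share libraries.

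Taken per gene, as the length-weighted mean RPKM over all its peaks, both marks passed at all 6 loci, where 57.0% of 14877 loci tested were higher in H3K18La and 62.2% of 17544 in H3K27Ac. Mean H3K18La rose from 1.81 ± 0.25 to 7.43 ± 1.63 RPKM over Sag (SD, n = 3) and from 3.64 ± 0.38 to 16.0 ± 2.93 over Grk1. Over Rcvrn it rose from 1.98 ± 0.31 to 10.1 ± 1.21 (log2 change 2.10 ± 0.16 SE, limma adjusted p = 0.000200). Over Rgs9 it rose from 1.05 ± 0.14 to 3.92 ± 0.64 (log2 change 1.51 ± 0.18 SE, limma adjusted p = 0.000645), against a median of 0.97 for all loci tested. H3K27Ac means rose from 3.47 ± 1.23 to 17.0 ± 6.05 over Pdc (SD, n = 2, log2 change 2.13, limma adjusted p = 0.000241) and from 3.25 ± 0.99 to 10.3 ± 1.86 over Rgs9 (log2 change 1.55), against a median of 1.01. The 6 loci were not ranked, since leaving out 1 library changed their order. All 6 loci stayed above 0 in both marks under each scaling. Centred, 4 passed in H3K18La and 1 in H3K27Ac, where 1311 of 14877 and 159 of 17544 loci tested were higher. Scaled to reads in peaks, 0 passed in either mark, as was so for all loci. At an unadjusted p below 0.05 there were 3 and 4, beside 2506 and 3944 of all loci tested. Without the 25 mM replicate 1 library none of the 6 passed in H3K27Ac (adjusted p 0.263 to 0.291), and without replicate 2 only Pdc did (adjusted p = 0.0212). Without 5 mM replicate 1, Sag and Gnb5 did not (adjusted p = 0.0559 and 0.0575), and with no minimum RPKM none did (adjusted p = 0.0671 for each).

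**Figure D4:**
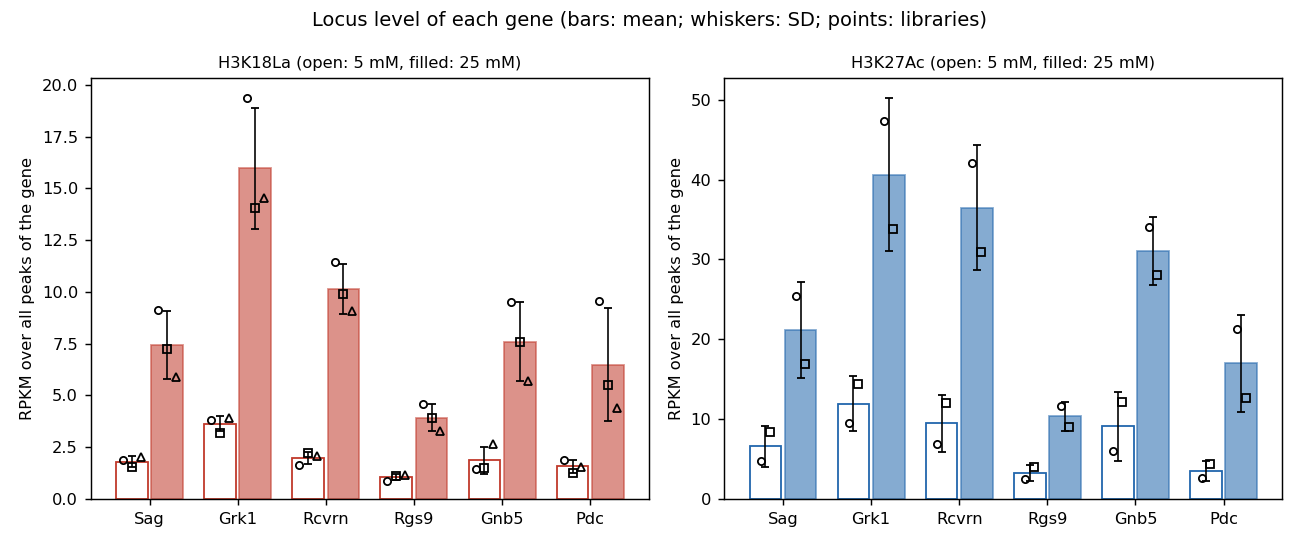
Length-weighted mean RPKM over all peaks of each shutoff gene, with bars for the mean of the libraries, whiskers for the SD and points for single libraries. The 25 mM bars are above the 5 mM bars at every gene, from 3.64 to 16.0 RPKM at Grk1 and from 1.05 to 3.92 at Rgs9 in H3K18La, and under the other scalings every gene stays above 0 in log2 change while 4 or fewer of the 6 pass.

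For Rgs9bp, the membrane anchor of the Rgs9 complex, the promoter peak that covers its annotated start (chr7:35583521-35586664, where the gene starts at 35585582 on the minus strand) is listed under Ankrd27, which begins 35586244 on the plus strand within the same peak. It was chosen after its values were seen, and it cannot be given to one of the 2 genes. H3K18La RPKM was 1.51, 1.29 and 1.87 at 5 mM and 10.36, 3.83 and 3.11 at 25 mM. The groups did not overlap, but replicate 1 was far above the other 25 mM libraries, and the log2 change was 1.44 ± 0.45 (SE, n = 3, limma adjusted p = 0.0268). H3K27Ac RPKM was 4.78 and 6.81 at 5 mM and 44.13 and 23.52 at 25 mM, a log2 change of 2.40 ± 0.51 (SE, n = 2, limma adjusted p = 0.000279). The H3K18La call was lost without 25 mM replicate 1 (log2 change 0.95, adjusted p = 0.101), and without 5 mM replicate 2 (adjusted p = 0.0776). The H3K27Ac call was lost without either 25 mM library (adjusted p = 0.416 and 0.0590). With no minimum RPKM neither mark passed (adjusted p = 0.0699 and 0.125). Neither did when libraries were scaled to reads in peaks (0.876 and 0.128 as adjusted p), nor did H3K18La when centred (adjusted p = 0.564).

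The other steps of the cascade give the setting of these changes, from lists of genes by role and by lead promoter peak. Of 14 rod genes that start the response or restore cGMP and calcium, all 14 passed in both marks, with medians of 2.18 for H3K18La and 2.09 for H3K27Ac beside 2.06 and 2.20 for the 6 shutoff genes. Medians over all lead promoters were 0.88 and 1.16. The rod list ran in H3K18La from Gngt1, the rod transducin gamma subunit (1.49), to Guca1b, an activator of guanylate cyclase (2.79). Among 9 of 10 cone genes with a promoter peak, 4 of 9 tested passed in H3K18La and 3 of 8 in H3K27Ac, beside 32.6% and 59.1% of all lead promoters, with medians of 1.53 and 0.84. Arr3, the cone arrestin, changed by 1.53 in H3K18La (limma adjusted p = 0.0561) and 0.84 in H3K27Ac (limma adjusted p = 0.101), and neither passed, beside 2.48 and 2.11 for its rod counterpart Sag. Gnb3, the cone transducin beta subunit, had the highest change of the cone list, 2.26 and 2.79.

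Relatives of the shutoff genes with wider expression were compared by the same measure. Of 17 of 21 with a promoter peak, 5 of 12 tested passed in H3K18La and 11 of 16 in H3K27Ac, near the 32.6% and 59.1% of all lead promoters, with medians of 1.18 and 1.37. The list ran in H3K18La from Rgs7bp (-0.22, too low to test) to Hpcal1, a relative of recoverin (2.11), and in H3K27Ac from Hpca, another relative of recoverin (0.03), to Gnb1, the rod transducin beta subunit, which is on the rod list too (2.15). Arrb1, a beta-arrestin, changed by 0.86 and 0.92 without passing in either mark. Grk2, a kinase of many receptors, changed by 1.82 in H3K18La (limma adjusted p = 0.0474) and 1.64 in H3K27Ac, but its mean H3K18La level at 5 mM was 0.21 RPKM, so it was tested only through its 25 mM libraries (mean 1.97). Rgs7, a relative of Rgs9 that also pairs with Gnb5, changed by 0.20 in H3K18La (limma adjusted p = 0.747) and 1.56 in H3K27Ac (limma adjusted p = 0.00353). Differences between the lists were not tested.

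**Figure D5:**
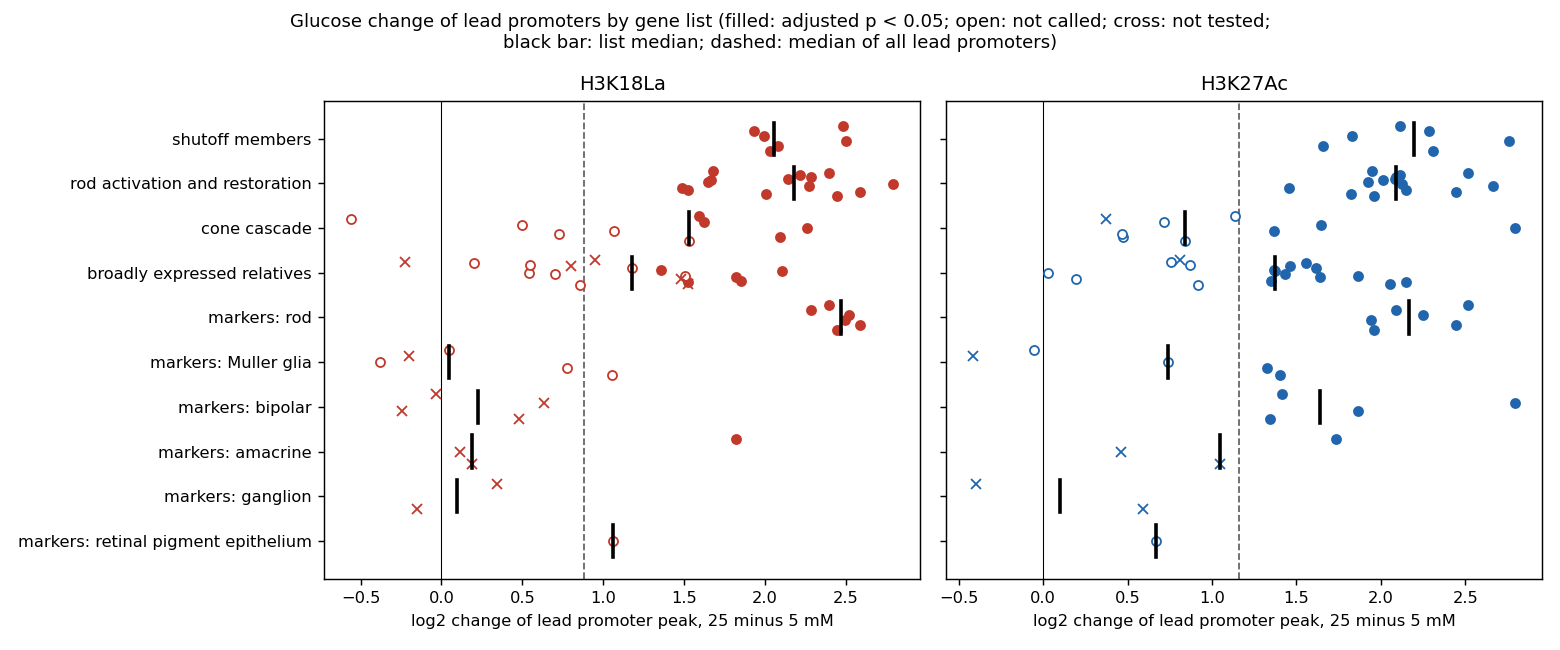
Log2 change of the lead promoter peak, 25 mM minus 5 mM glucose, for the genes of each list in H3K18La and H3K27Ac. The 6 shutoff genes lie between 1.93 and 2.50 in H3K18La beside the 14 rod genes at 1.49 to 2.79, whereas cone genes reach down to -0.56 (Opn1sw); the shutoff genes stay above 0 when libraries are centred or scaled to reads in peaks.

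Markers of rods, and in H3K27Ac those of bipolar cells, rose with glucose as well, and their part in the changes of the shutoff genes was not tested. The counts below stand beside 32.6% of all lead promoters in H3K18La and 59.1% in H3K27Ac, and with 6 or fewer genes a list they were not compared with each other. All 6 rod markers passed in both marks, and their summed promoter RPKM ranged from 7.40 to 12.6 at 5 mM and 44.1 to 106 at 25 mM in H3K18La, and from 40.4 to 66.6 and 191 to 335 in H3K27Ac. Of Müller glia markers (5 of 6 with a promoter peak), 0 of 4 tested passed in H3K18La and 2 of 4 in H3K27Ac, with sums of 3.64 to 6.96 against 7.96 to 11.996 and of 13.5 to 15.9 against 27.8 to 34.8. Bipolar markers (4 of 5) were too low to test in H3K18La, at sums of 1.66 to 2.93 against 2.25 to 3.47, and 4 of 4 passed in H3K27Ac, at 3.92 to 5.71 against 17.3 to 30.6. Amacrine markers (3 of 5) passed in 1 of 1 tested in each mark, with sums of 1.60 to 3.26 against 7.15 to 10.0 and of 7.21 to 9.34 against 19.3 to 40.1, of which Slc6a9, the one tested, made up most. Gad1 and Gad2 averaged 0.29 and 0.41 at 5 mM and 0.36 and 0.41 at 25 mM in H3K18La. Ganglion cell markers (2 of 5) were too low to test in either mark, with sums of at most 2.42 in H3K18La and 2.09 in H3K27Ac. No microglial marker of 4 had a promoter peak, and of 5 pigment epithelium markers Best1 alone had one, which passed in neither mark. Among the markers with a promoter peak, none was at 0 in every library of a level.

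The promoters whose levels followed the shutoff genes most closely were ranked by Pearson's r with the mean of the 6 lead promoters over the 10 libraries, on the log2 scale. Among 12651 lead promoters, those near the top included BC034090 (r = 0.997), Gm47160 (0.996), Elfn1 (0.996) and Tpd52 (0.995). The likeness was not confined to a few genes, since the median r was 0.833 and 1047 promoters reached 0.95, and the mark, glucose level and share of reads in peaks are common to all points.

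Sequence under the peaks was summarised over their central 300 bases. Of the 7 promoter peaks of the shutoff genes, TAATCC lay in 1, TGCTGA in 2, GGGCGG in 1 and AGGTCA in 1, beside 6.95%, 18.4%, 44.8% and 15.0% of all promoter peaks. Of the 38 peaks outside promoters these were 8, 11, 3 and 6, beside 12.3%, 26.0%, 5.55% and 22.2% of all such peaks. Median GC content was 52.7% in the 7 promoter peaks against 60.3% in all promoter peaks, and 48.7% against 49.0% outside promoters. The counts are small and were not tested.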

How the data were processed

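CUT&Tag libraries for H3K18La and H3K27Ac from retinal explants were grouped by mark and glucose level from the sample labels. The authors used nf-core/cutandrun for alignment (GRCm38) and MACS for peaks, kept peaks found in more than 1 replicate outside blacklisted regions, and annotated them with ChIPseeker 1.34.1, a promoter reaching from 1000 bp before to 500 bp after a start. They deposited RPKM values over one peak set common to all libraries. Its size and the methods match the merged H3K18La peaks of developing and mature retina, so it was probably not called in these explants or for H3K27Ac. A second deposited file holds the authors' own test of H3K18La between glucose levels (edgeR 3.40.2), with fold changes and p-values, and was not used.

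RPKM values were transformed as log2(RPKM + 0.5). Every peak averaging 1 RPKM or more over the libraries of its mark was fitted with limma 3.58.1 in R 4.3.3 (lmFit, eBayes with a trend), and p-values were adjusted by Benjamini-Hochberg over all peaks tested. In the main H3K27Ac fit, limma's spread followed the trend over all peaks, not the single peak. Its prior degrees of freedom, the weight given to that trend, were infinite. The SE of an H3K27Ac change is therefore not the spread of that peak's own libraries. The prior degrees of freedom were 2.82 with no minimum RPKM, 13.6 when centred and 10.9 when scaled to reads in peaks. All (100%) values were whole multiples of 1 read (tolerance 0.05 reads), which gave the read counts and the denominators. No interval was computed, and the 3-read floor covers counting error only. The labels call the replicates biological without naming animals, so p-values measure the spread between these libraries. In the main H3K27Ac fit that spread is pooled over peaks. Replicates of each group differed by more than sampling noise, but by little in H3K18La at 5 mM. Chi-square per degree of freedom was 1.04 to 1.06 there and 1.14 to 2.87 in the other groups. The interaction was fitted to peaks averaging 1 RPKM over the 10 libraries, and locus values are length-weighted means over the peaks of a symbol.

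The genes, the lists, the minimum of 1 RPKM and the alternatives were chosen with earlier results of these data known, and the scripts were tested on simulated data. There, 200 peaks averaging 3 RPKM or more were changed in each mark. Of the 100 changed 4-fold, 32 were called in H3K18La and 68 in H3K27Ac. Each gene was described by its lead promoter and lead non-promoter peak, those with the highest mean RPKM. Other peaks named here, the relatives Arr3, Arrb1, Grk2 and Rgs7, and the peak over the Rgs9bp start, were chosen after their values were seen. Promoter sequences and starts for the motif search came from RefSeq (GRCm38.p6). Of the 5 promoters most like those of the shutoff genes, 1 is not reported here.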

Additional observations from a re-analysis of the deposited data

Results flagged for a closer look

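The promoter peak over the Rgs9bp start, which carries the symbol Ankrd27 and so lies outside the 45 peaks, was above its 5 mM level at 25 mM glucose, with a log2 change of 1.44 in H3K18La (limma adjusted p = 0.0268) and 2.40 in H3K27Ac (limma adjusted p = 0.000279). It drew attention because it is a signal in a peak that the choice by symbol leaves out. Centred on the median peak, the H3K18La change was 0.53 (adjusted p = 0.564) and the H3K27Ac change 1.71 (adjusted p = 0.0428). Scaled to reads in peaks, they were 0.23 (adjusted p = 0.876) and 1.18 (adjusted p = 0.128).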

How the results depend on the processing

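Scaling moved the counts in both marks, and in H3K27Ac the minimum RPKM and single 25 mM libraries moved them as far. Of 24 member peaks called in H3K18La, 1 was called when libraries were centred on the median and 0 when scaled to reads in peaks (6 of 34 at an unadjusted p below 0.05), while over all peaks the 24539 called became 1040 and 0 (7572 unadjusted). Of 29 in H3K27Ac, 7 and 0 were called (15 of 45 unadjusted), while over all peaks 24698 became 1144 and 0 (12491 unadjusted). Called loci fell from 6 to 4 and 0 (3 unadjusted) in H3K18La, over all loci from 8499 (12 lower) to 1385 (74 lower) and 0 (2506 unadjusted), and from 6 to 1 and 0 (4 unadjusted) in H3K27Ac, over all loci from 10967 (10918 higher and 49 lower) to 269 (159 higher and 110 lower) and 0 (3944 unadjusted). The Sag peak at +4.0 kb turned to -0.055 and -0.45 in H3K18La. Without the minimum RPKM, limma called 0 H3K27Ac peaks (32 of 45 members and 31013 in all unadjusted) and 0 loci (11638 unadjusted, members 6), and 19 H3K18La members (18230 of 108253 peaks higher and 160 lower). The cause was not tested.

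Leaving out 1 library in turn gave 19 to 24 H3K18La member peaks (15592 to 24366 in all) and 6 loci (6614 to 7896 in all). For H3K27Ac it gave 0 to 36 member peaks (10 to 38643 in all) and 0 to 6 loci (119 to 12903 in all). The member count was 0 without 25 mM replicate 1 (16 unadjusted), 2 without 25 mM replicate 2, 26 without 5 mM replicate 1 and 36 without 5 mM replicate 2.

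Replicate numbers are shared between groups, but same-numbered libraries of a mark did not deviate together (r of 0.0132 to 0.0288), and across marks replicate 1 and 2 at 25 mM had r of 0.193 and 0.0732 with their own number, so within a mark no pairing was taken. With the replicate block, 24 H3K18La member peaks were called (23918 in all) and 11 in H3K27Ac (7897 in all). Called loci were 6 in H3K18La (8071 in all) and 0 in H3K27Ac (1069 in all). The H3K27Ac lead promoters of Sag, Grk1 and Rcvrn then had limma adjusted p of 0.104, 0.195 and 0.120. Not every library correlated best with its own number. The interaction called 0 member peaks and 0 of all peaks under each alternative run. Both of the next alternatives were chosen after seeing the data. By voom on recovered reads, 25 and 30 member peaks were called (29642 and 25366 higher of 65614 and 72442 peaks), and with H3K18La 5 mM replicates 2 and 3 as 1 sample, 25 (25676 higher). The edgeR alternatives, with TMM or without, were not run, and voom stood in for them. Pseudocounts of 0.1 and 1 and robust moderation kept every member count within 1.5 times. Among single lead peaks, 149 of the H3K18La results kept their direction and side of the threshold, 27 lost the call, 2 gained it and 2 turned sign, and for H3K27Ac 83 kept both and 61 lost the call.

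In 17 of the 45 peaks no 5 mM H3K18La library held more than 3 reads, and a change that missed the threshold there does not show that the levels were alike.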
